A study of Homo sapiens with 4 samples.

Results

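The regions described here are promoter peaks of open chromatin that were found in control neuroblastoma cells and had no counterpart in SNHG1-depletion cells. They were selected on the called peaks themselves. A control peak was kept when it came within 3 kb of the transcription start site (TSS) for a protein-coding gene, lay outside chromosomes 4, 9 and X, and overlapped no sgSNHG1 peak by even 1 bp. This left 1885 control-only promoter peaks of 11038 control promoter peaks, which is 17.1%, and of 47610 control peaks in all. The other 9153 promoter peaks overlapped an sgSNHG1 peak and are called shared below. Another 290 control-only promoter peaks lay on the 3 chromosomes left out and were not described.

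Chromatin accessibility was profiled by ATAC-seq in SK-N-BE(2)C, an established MYCN-amplified human neuroblastoma line, in 2 groups of 2 replicates. Control cells were wildtype and carried a non-targeting guide RNA, and sgSNHG1 cells carried guide RNAs against SNHG1, a long non-coding RNA host gene of small nucleolar RNAs, and were labelled as a knockout. The labels give both groups 1 protocol, with Cas9 and guide RNAs on a plasmid, puromycin and clones from single sorted cells, and the study used 1 control clone, so effects of the guide RNAs and differences between clones cannot be told apart. The edited clones kept some SNHG1 expression according to the study, and its methods call the replicates independent experiments without saying from which cultures they came. The authors combined the replicates of a group before peaks were called, so each value below comes from 1 pooled list per group, has no replicate spread and was not tested between the groups.

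A promoter is the stretch of DNA around a TSS where transcription factors and RNA polymerase assemble, and at active genes it is kept free of nucleosomes. In ATAC-seq the Tn5 transposase inserts adapters into such open DNA, and sites that collect more fragments than their surroundings are called as peaks. Many housekeeping promoters are rich in CpG dinucleotides and open in nearly every cell type, whereas promoters of developmental and neuronal genes tend to be open in some cell types and closed in others. In a population of cells, a site that is open in fewer cells and a site that is less open in every cell cannot be told apart.

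Promoter peaks were counted at marker genes of several cell types, and the counts do not single out the neuroblastoma lineage. Of 12 adrenergic neuroblastoma marker genes, 11 had a promoter peak in each list, and TH, which encodes tyrosine hydroxylase, had none in either. None of 4 blood markers had a peak in either list. Of 5 Schwann and glial markers 1 had a peak in each list, of 5 fibroblast markers 5 had one in control and 4 in sgSNHG1, and of 3 endothelial markers 2 had one in control and 1 in sgSNHG1. The smallest local background was 2.20 fragments in control and 1.72 in sgSNHG1, and the narrowest peak measured 119 bp in control against 92 bp in sgSNHG1. Both move with the library, and their part in the results was not tested.

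To show what these promoters look like, sequences are given for 5 control-only peaks that covered the TSS of a gene with no sgSNHG1 promoter peak. They were taken in order of fold enrichment from the 15 highest among such genes, and stretches in an annotated UTR were left out. Each sequence lies within 100 bp of the summit in GRCh38, and the one at AP1S1 ends at the base before the TSS. Capitals mark matches on either strand to GGGCGG (SP and KLF factors), CCAAT (NF-Y), CCGGAAG (ETS factors), CACGTG (the E-box of MYC and MYCN), CATCTG (an E-box of HAND and related factors), CAGCTG (another E-box), and the motif of NRF1. The E-boxes are forms of CANNTG, and the NRF1 motif is 9 defined bases with 1 base of any kind among them. In windows of 201 bp centred on the TSS of all 17577 protein-coding genes, these letters were present in 47.2%, 26.0%, 10.3%, 5.86%, 7.91%, 13.5% and 5.91% of windows.
C10orf53 (chr10:49679449-49679649, plus strand): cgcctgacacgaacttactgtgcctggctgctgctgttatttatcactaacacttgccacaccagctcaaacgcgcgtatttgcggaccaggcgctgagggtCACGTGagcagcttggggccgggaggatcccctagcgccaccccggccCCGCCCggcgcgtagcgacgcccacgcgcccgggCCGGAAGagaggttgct
AP1S1 (chr7:101154336-101154455, plus strand): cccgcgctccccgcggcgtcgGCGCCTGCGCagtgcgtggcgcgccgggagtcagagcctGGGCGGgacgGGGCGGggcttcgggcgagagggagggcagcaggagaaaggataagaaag
FLRT3 (chr20:14337626-14337826, plus strand): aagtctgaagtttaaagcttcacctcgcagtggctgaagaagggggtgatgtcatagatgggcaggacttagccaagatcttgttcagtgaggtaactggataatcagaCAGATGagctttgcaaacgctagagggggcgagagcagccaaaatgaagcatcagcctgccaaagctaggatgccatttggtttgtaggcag
ITGA8 (chr10:15720010-15720210, plus strand): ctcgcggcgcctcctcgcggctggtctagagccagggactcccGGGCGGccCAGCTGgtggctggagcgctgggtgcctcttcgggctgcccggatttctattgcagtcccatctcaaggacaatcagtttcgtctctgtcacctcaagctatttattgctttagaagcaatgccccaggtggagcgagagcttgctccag
HOOK1 (chr1:59814571-59814771, plus strand): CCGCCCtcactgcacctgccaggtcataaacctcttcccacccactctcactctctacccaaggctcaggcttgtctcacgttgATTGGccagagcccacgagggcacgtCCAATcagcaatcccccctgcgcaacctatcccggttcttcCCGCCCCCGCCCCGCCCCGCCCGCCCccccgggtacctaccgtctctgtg

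These stretches differed in composition. At C10orf53 the stretch held an SP, a MYC E-box and an ETS match at 65.7% GC. AP1S1, which encodes the small subunit of the AP-1 clathrin adaptor, had NRF1 and GGGCGG matches at 75% GC. HOOK1, which encodes a linker of cargo to microtubule motors, held GGGCGG and CCAAT matches in 65.7% GC. ITGA8, an integrin alpha subunit, had a GGGCGG and a CAGCTG match, and FLRT3, a cell adhesion protein of developing neurons, had only a CATCTG match at 48.8% GC. A match describes letters in the window and does not show that a factor was bound.

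The strongest control-only promoter peaks are given first. Strength is given as the pileup, which is the number of fragments over the summit, with an exact 95% Poisson interval. The calling limit is the smallest pileup that would have reached the significance of the weakest sgSNHG1 peak at the same local background. It is expressed here in control fragments, after scaling by the ratio of the backgrounds of 0.780 (sgSNHG1 over control). Intervals in this text cover counting error only.

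C10orf53 (ENSG00000178645.14) had the highest significance, with a -log10 q of 30.7. Its peak (chr10:49679305-49679863) had its summit 102 bp upstream of the TSS, a fold enrichment of 11.4 over local background and a pileup of 41 fragments (29.4 to 55.6), against a limit of 12.8. The nearest sgSNHG1 peak lay 15167 bp away. The highest sgSNHG1 pileup below the limit would have been 0.281 of the scaled control pileup, the lowest such ratio among all 1885 peaks.

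ETV1, an ETS-family transcription factor, had 2 control peaks in its window and neither overlapped an sgSNHG1 peak. The peak over the TSS (chr7:13991164-13991593) had a pileup of 38 (26.9 to 52.2), and the one 1761 bp downstream, in a UTR (chr7:13989265-13989894), had 42 (30.3 to 56.8). The limit was 16.7 for each. AP1S1 (chr7:101154108-101154625) had a pileup of 37 (26.1 to 51.0) against a limit of 14.1, with its summit 20 bp upstream of the TSS. FRZB, a secreted WNT antagonist, also had a pileup of 37 (26.1 to 51.0) with a limit of 15.4, in a peak of 886 bp (chr2:182866457-182867342) that covered the TSS. All of these genes were without an sgSNHG1 peak anywhere in the promoter window.

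Receptors and adhesion proteins were also among the genes without an sgSNHG1 promoter peak. ROBO2, a receptor for SLIT guidance cues, had a pileup of 32 (21.9 to 45.2) at its TSS (chr3:75906222-75906906) against a limit of 12.8. Another annotated ROBO2 transcript start had an sgSNHG1 peak, so the gene was not without open promoters in SNHG1-depletion cells. ITGA8 had a pileup of 34 (23.5 to 47.5) and SEMA7A, a membrane-anchored semaphorin, 35 (24.4 to 48.7), each in a peak that covered the TSS. GPR75, an orphan G protein-coupled receptor, shared its peak of 34 fragments with the neighbouring gene ASB3.

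Metabolic, survival and structural genes had peaks of the same size. ME3, a mitochondrial malic enzyme, had a pileup of 44 (32.0 to 59.1) within a coding exon 864 bp downstream of the TSS. BIRC3, an inhibitor of apoptosis, and PLEKHA2, a phosphoinositide-binding adaptor, each had 36 (25.2 to 49.8) in a peak over the TSS. PHAF1 and the keratin gene KRT80 each had 35 (24.4 to 48.7). An unnamed protein-coding locus, ENSG00000257767, had 33 (22.7 to 46.3).

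Among the 25 peaks of highest significance, 16 lay at genes without any sgSNHG1 promoter peak and 9 at genes that had one elsewhere in the window. The lower end of the Poisson interval was above the limit in all 25, which their choice by -log10 q largely fixed, and 14 covered the TSS.

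**Figure D1:**
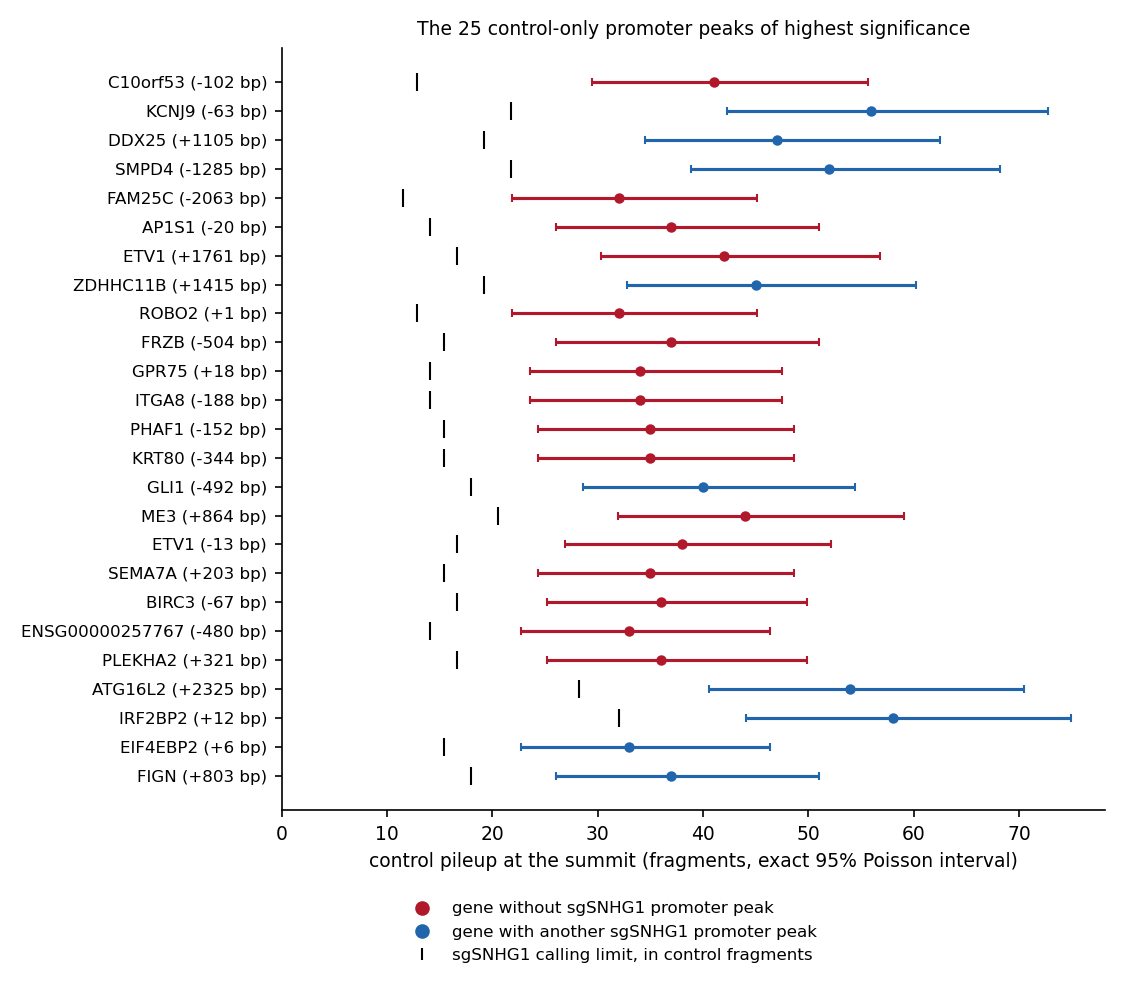
Control pileup at the summit (x axis, fragments) of the 25 control-only promoter peaks with the highest -log10 q, one per row, with the distance of the summit from the TSS in parentheses. Points are pooled control values with exact 95% Poisson intervals, red for genes without and blue for genes with another sgSNHG1 promoter peak, and black ticks are the sgSNHG1 calling limits in control fragments. Every interval lies to the right of its tick, as the choice of peaks by -log10 q largely fixed.

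At the other 9 peaks the promoter window was not empty in SNHG1-depletion cells. KCNJ9, which encodes a G protein-gated inward rectifier potassium channel subunit, had its only control peak (chr1:160081366-160081547) 63 bp upstream of the TSS, with a pileup of 56 (42.3 to 72.7) against a limit of 21.8. The only sgSNHG1 peak in the window lay 2611 bp downstream of the TSS, with a pileup of 18. EIF4EBP2, a repressor of translation initiation, showed the same arrangement, with 33 fragments (22.7 to 46.3) at the TSS in control and an sgSNHG1 peak of 16 fragments 1509 bp downstream. GLI1, the transcriptional effector of hedgehog signalling, had 40 fragments (28.6 to 54.5) 492 bp upstream of the TSS, and the nearest sgSNHG1 peak had its summit 3085 bp downstream.

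In the remaining genes the control-only peak was one of several. FIGN, a microtubule-severing enzyme, had a shared peak over the TSS with a pileup of 38 in control and 26 in sgSNHG1, while the peak 803 bp downstream, with 37 fragments (26.1 to 51.0), was found in control alone. At IRF2BP2, a transcriptional corepressor, the peak over the TSS with 58 fragments (44.04 to 74.98) was control-only. A shared peak at -870 bp from the TSS had 66 fragments in control and 62 in sgSNHG1. DDX25, an RNA helicase of germ cells, had a shared peak of 32 control and 34 sgSNHG1 fragments next to a control-only peak of 47 (34.5 to 62.5), whose window also holds PUS3. SMPD4, a neutral sphingomyelinase, and ATG16L2, an autophagy protein, had control-only peaks of 52 (38.8 to 68.2) and 54 (40.6 to 70.5) beside a shared peak. Neighbouring open sites of one promoter could thus be found in both lists and in control alone.

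Among genes with no sgSNHG1 promoter peak, the 15 peaks with the highest fold enrichment added further genes. TTLL3, a tubulin-modifying enzyme, and TICAM2, an adaptor of Toll-like receptor signalling, each had 26 fragments (17.0 to 38.1) against a limit of 11.5. PTPRM, a receptor tyrosine phosphatase, SPINK9, a protease inhibitor, and FLRT3 each had 25 (16.2 to 36.9). HOOK1 had 28 (18.6 to 40.5), as did SRSF5, a splicing factor with an sgSNHG1 peak at another transcript start. CGAS, the sensor of cytosolic DNA, had 24 (15.4 to 35.7) in a coding exon 713 bp downstream of the TSS. Of these 15 peaks, 9 covered the TSS. FAM25C with 32 fragments, RASA4 with 25 and ZDHHC11B with 45 belong to families with near-identical copies, where reads can be assigned to the wrong copy, and their values are uncertain.

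Neighbouring control peaks were then examined. For the 34 peaks named above by either rule, the number of neighbouring control peaks in a row without sgSNHG1 overlap was 1 in 18 cases and 5 at most, at ROBO2. The nearest shared peaks on the lower and upper side were 68 in all, with the flanks of ETV1 counted for each of its peaks. They lay at a median of 42566 bp. Their sgSNHG1 pileup over background had a median log2 ratio to control of -0.08 (quartiles -0.29 and 0.20). Flanks had to be called in sgSNHG1 and control-only neighbours were passed over, so these ratios cannot show whether the surroundings were unchanged. Near C10orf53, a shared peak 15200 bp away had 25 fragments in control and 26 in sgSNHG1. Near DDX25, a shared peak 1045 bp away had 32 and 34. The lowest flanking ratio was -1.34, at a peak 63028 bp from that of ME3 with 65 fragments in control and 20 in sgSNHG1.

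Most control-only promoter peaks were weaker than those named. Their median pileup was 19 fragments (quartiles 15 and 23, highest 58), against 40 for shared promoter peaks. The median fold enrichment was 4.01 against 7.44, the median -log10 q 5.25 against 21.0 and the median width 228 bp against 622 bp. These values are descriptions, since a weak control peak is more likely to meet no sgSNHG1 peak. The share of promoter peaks that were control-only was 81.5% (95% Wilson interval 76.9 to 85.4) below the calling limit and 63.4% (60.8 to 65.9) at 1 to 1.25 times the limit. It was 35.2% (32.6 to 37.9) at 1.25 to 1.5 times, 13.0% (11.7 to 14.5) at 1.5 to 2 times and 1.55% (1.18 to 2.04) at 2 to 3 times. Above 3 times the limit, 1 peak of 2737 was control-only.

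By this measure 1625 of the 1885 peaks, or 86.2%, would have reached the limit in sgSNHG1 had their scaled pileup been the same, and 260 would not. The limit concerns the summit alone and leaves out peak width, so a narrow site that reached it could still have gone uncalled. For 264 peaks, or 14.0%, the lower Poisson bound itself was at or above the limit. The same held for 7598 shared promoter peaks, so 3.36% of the promoter peaks that met this bound were control-only. Of these 264, 180 lay at genes without an sgSNHG1 promoter peak and 100 covered the TSS. The highest sgSNHG1 pileup below the limit was a median of 0.769 of the scaled control pileup, and at most 0.5 of it for 92 peaks. At shared promoter peaks the measured ratio of sgSNHG1 to control had a median of 0.974, with 10th and 90th percentiles of 0.723 and 1.33, and was at most 0.5 at 35 of 9153. Shared peaks had to be called in sgSNHG1, which removes low ratios, most of all at weak peaks. At the 1345 shared peaks with a pileup in the middle range of control-only peaks, the median was 1.14 and 0 were at most 0.5. The shared ratios therefore cannot show how common such a low ratio was, and are no reference for the control-only peaks.

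**Figure D2:**
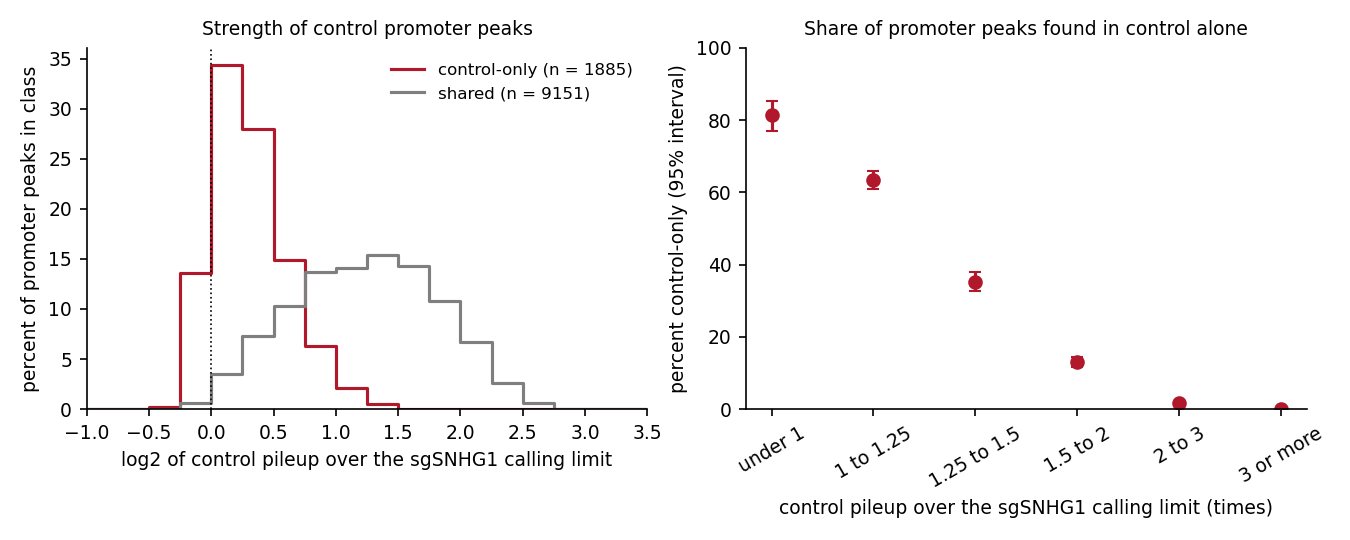
Left, percent of control-only (red) and shared (grey) promoter peaks (y axis) by the log2 of the scaled control pileup over the sgSNHG1 calling limit (x axis), with the limit as a dotted line; 2 shared peaks without a limit are not drawn. Right, percent of control promoter peaks that were control-only (y axis, 95% Wilson interval) by pileup over the limit (x axis), which went from 81.5% below the limit to 1.55% at 2 to 3 times the limit.

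At the edge of the rule, 2 control-only peaks touched an sgSNHG1 peak without overlap. SPATA5L1 (a peak shared with the window of GATM) and PTPRN had pileups of 15 and 19, and TRAK1, 1 bp away, had 10. Just outside the rule, the promoter peaks of FMNL1, SPRED2 and CELF3 overlapped an sgSNHG1 peak by 1, 3 and 3 bp, with pileups of 23, 23 and 28. The median gap to the nearest sgSNHG1 peak was 5528 bp (quartiles 667 and 24866), 151 peaks (8.01%) were within 200 bp of one, and 835 (44.3%) within 3 kb.

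The 1885 peaks lay in the windows of 1930 genes, which is 17.3% of the 11160 genes with a control promoter peak. Of these, 1041 genes, or 9.33% of the 11160, had no sgSNHG1 promoter peak of any kind and are called control-alone genes. The other 889 had an sgSNHG1 peak in the window, 766 of them a shared peak and 123 only at other sites. In the opposite direction, 831 of 10798 sgSNHG1 promoter peaks (7.7%) overlapped no control peak, and 337 of 10442 genes (3.23%) had a promoter peak in sgSNHG1 alone. The lists differed in sensitivity. At genome background the smallest callable pileup was 4.54 times background in control and 5.23 times in sgSNHG1. The part of this in the difference between the 2 directions was not tested. For 146 of the control-alone genes an sgSNHG1 peak lay within 3 kb of another transcript start of the gene.

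Of the control-alone genes, 109 had at least 2 control-only peaks and 12 at least 3. CHRM4, a muscarinic acetylcholine receptor, had pileups of 31, 25 and 22 at 3 sites from -804 to 2153 bp relative to the TSS. SMAD7, an inhibitor of TGF-beta signalling, had 13, 12 and 12, against a lowest pileup of 10 among all control-only promoter peaks. The sphingosine-1-phosphate receptor gene S1PR1 had 25, 24 and 17, and the kinesin-family gene KIF26A 33, 23 and 23. SHOX2 had 38, 26 and 25, in peaks that also lay in the window of RSRC1. Other control-alone genes with 2 such peaks included SH3PXD2A with 37 and 18 fragments and COL11A1 with 24 and 22. SHOX2 and DLX5 (with 23 and 14 fragments at DLX5) encode homeodomain factors of development. SALL1 (20 and 17) and CBX2 (23 and 19) encode a zinc finger repressor and a Polycomb protein.

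Control-only peaks lay farther from the TSS than shared peaks. They covered the TSS in 24.1% of cases (22.2 to 26.1), against 72.8% (71.9 to 73.7) of shared promoter peaks. Shared peaks with a pileup of 15 to 23, the middle range of control-only peaks, covered it in 53.1% (50.4 to 55.7). These shared peaks, also used for comparison below, were still stronger than control-only peaks. Their median fold enrichment was 5.01 against 4.01, their median -log10 q 7.51 against 5.25 and their median width 356 bp against 228 bp. The summit was within 1 kb of the TSS in 70.3% (68.2 to 72.4) of control-only and 88.1% (87.4 to 88.7) of shared peaks. It lay over 1 kb downstream in 19.6% (17.8 to 21.4) and 8.13% (7.59 to 8.71). By annotation, 35.0% of control-only summits were in introns and 11.2% in coding exons, against 20.8% and 6.77% of shared summits.

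Position is given for both kinds of gene as a description. At genes with a shared peak in the window, that peak often occupied the TSS, so the split itself places control-only peaks there away from it. At control-alone genes, 32.5% (29.7 to 35.4) of 1056 peaks covered the TSS and 44.9% (41.9 to 47.9) had the summit within 250 bp of it. At genes with another sgSNHG1 peak, 13.4% (11.2 to 15.9) of 829 peaks covered the TSS and 21.7% (19.0 to 24.6) were within 250 bp. A control-only peak that covered the TSS was found at 399 of the 1041 control-alone genes.

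**Figure D3:**
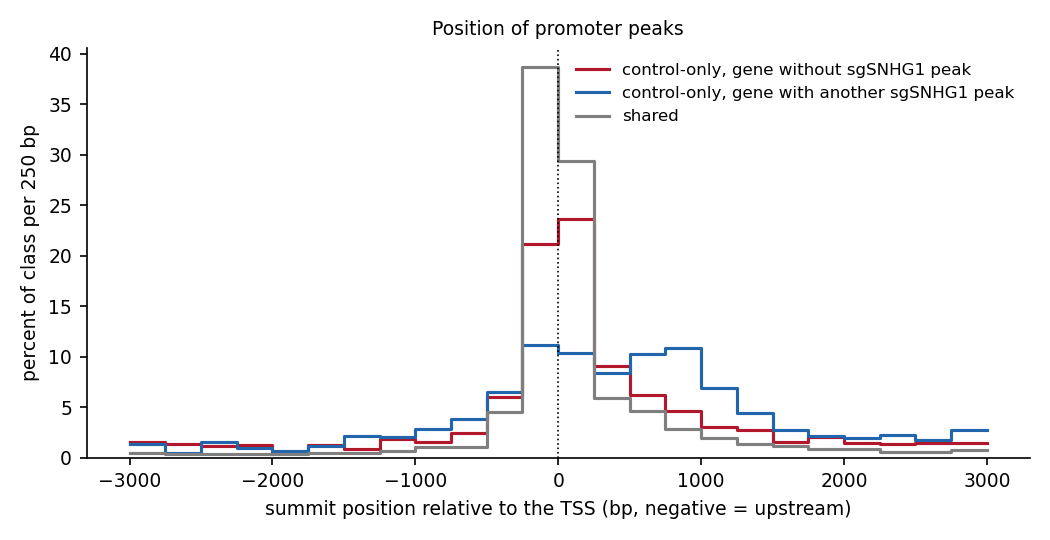
Percent of peaks per 250 bp (y axis) by the distance of the summit from the TSS (x axis, bp, upstream negative), for control-only peaks at genes without (red) and with (blue) an sgSNHG1 promoter peak and for shared promoter peaks (grey). Summits within 250 bp of the TSS make up 44.9%, 21.7% and 68.1% of the classes.

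Strength moves with position, so the share of control-only peaks was also read within a single band of strength. At 1.25 to 2 times the calling limit, 13.8% (12.3 to 15.5) of 1783 promoter peaks over a TSS and 29.3% (27.1 to 31.5) of 1634 that did not cover it were control-only. Summits within 250 bp gave 16.2% (14.6 to 18.0), those 250 bp to 1 kb away 24.0% (21.29 to 26.97), and those farther away 29.8% (26.6 to 33.1). Strength still varied within the band, where the control-only share was 35.2% at 1.25 to 1.5 times the limit and 13.0% at 1.5 to 2 times. The part of strength in the differences within the band was not tested. Across all strengths the shares over and away from the TSS were 6.38% and 36.5%.

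Base composition at the summits differed in CpG content more than in GC content. The median GC content of the 201 bp around the summit was 67.2% in control-only and 67.7% in shared promoter peaks. The observed over expected CpG ratio had a median of 0.734 in control-only peaks, 0.859 in shared peaks and 0.840 in shared peaks with a pileup of 15 to 23. Stretches with at least 60% GC and a CpG ratio of at least 0.6 made up 57.6% (55.4 to 59.8), 73.3% (72.4 to 74.2) and 71.1% (68.6 to 73.4). Among peaks over a TSS the intervals overlapped, with 78.0% (73.9 to 81.5) for control-only sites and 77.5% (74.2 to 80.4) for shared sites of that pileup.

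Letters bound by general promoter factors were less frequent at control-only summits. Peak strength stayed unequal between the classes compared, and its part in these differences was not tested. The ETS letters CCGGAAG were present in 4.03% (3.23 to 5.02) of control-only peaks, 14.6% (13.9 to 15.3) of shared peaks and 11.6% (10.0 to 13.4) of shared peaks with a pileup of 15 to 23. For NRF1 the shares were 2.60% (1.97 to 3.42), 7.86% (7.32 to 8.42) and 6.99% (5.75 to 8.48). The NF-Y letters CCAAT were present in 14.7% (13.2 to 16.4), 30.4% (29.5 to 31.4) and 19.8% (17.7 to 22.0). GGGCGG, the letters of the SP and KLF factors, was present in 49.0% (46.8 to 51.3), 61.8% (60.8 to 62.8) and 57.9% (55.3 to 60.5).

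The ETS difference was also seen among peaks that covered the TSS. There the ETS share was 8.81% (6.54 to 11.8) in the 454 control-only peaks, against 16.7% (14.1 to 19.6) in 714 shared peaks with a pileup of 15 to 23. The intervals overlapped for NRF1, with 7.05% (5.04 to 9.78) and 10.8% (8.72 to 13.3), and for CCAAT, with 16.7% (13.6 to 20.5) and 21.4% (18.6 to 24.6). GGGCGG was present in 67.0% (62.5 to 71.1) and 62.7% (59.1 to 66.2). Peaks that did not cover the TSS numbered 1431 control-only and 631 shared with that pileup. Among them the ETS share was 2.52% (1.82 to 3.46) and 5.86% (4.28 to 7.98), and the GGGCGG share 43.3% (40.8 to 45.9) and 52.5% (48.6 to 56.3). Over all control-only peaks and all shared peaks with that pileup, the MYC E-box CACGTG was present in 5.57% (4.62 to 6.70) and 6.32% (5.14 to 7.75).

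**Figure D4:**
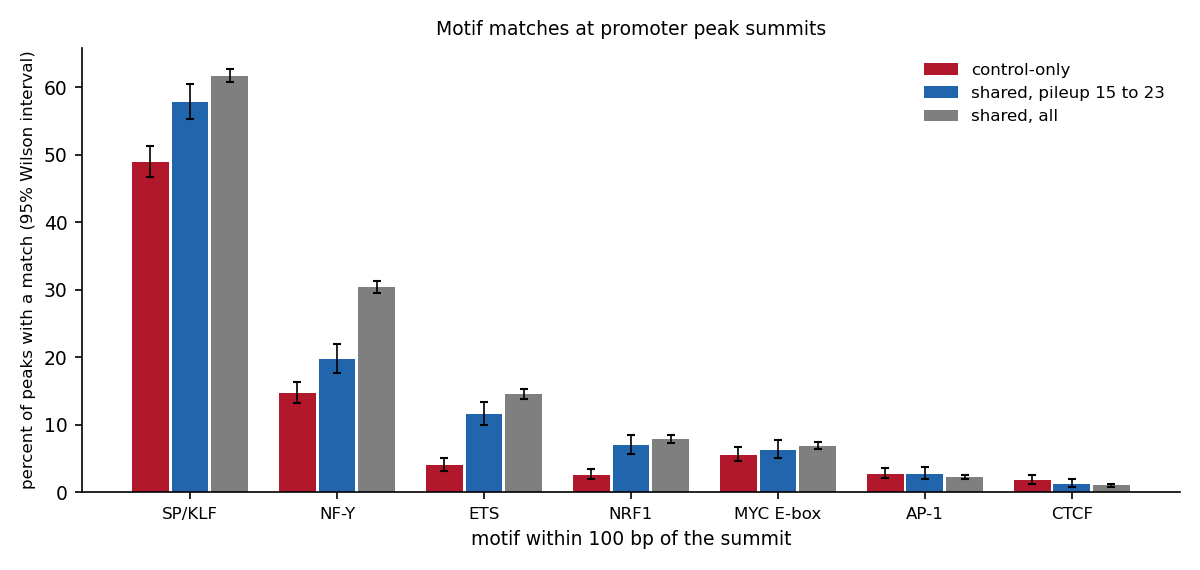
Percent of promoter peaks with at least 1 match within 100 bp of the summit (y axis, bars from 0 with 95% Wilson intervals) for 7 motifs (x axis), in control-only peaks (red), shared peaks with a control pileup of 15 to 23 (blue) and all shared peaks (grey). The ETS bar is at 4.03% in control-only peaks, against 11.6% and 14.6% in shared peaks.

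The genes concerned were grouped by function. Among 32 lists with at least 10 genes that had a control promoter peak, 7 had a share of control-alone genes whose interval lay above the 9.33% of all genes, and 1 had an interval below it. The intervals are not adjusted for the number of lists. The lists with high shares also had weaker control peaks, and the part of peak strength in these shares was not tested. Over all 11160 genes the highest control pileup in a promoter had a median of 38 fragments, and 17.3% of these genes had a control-only peak.

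**Figure D5:**
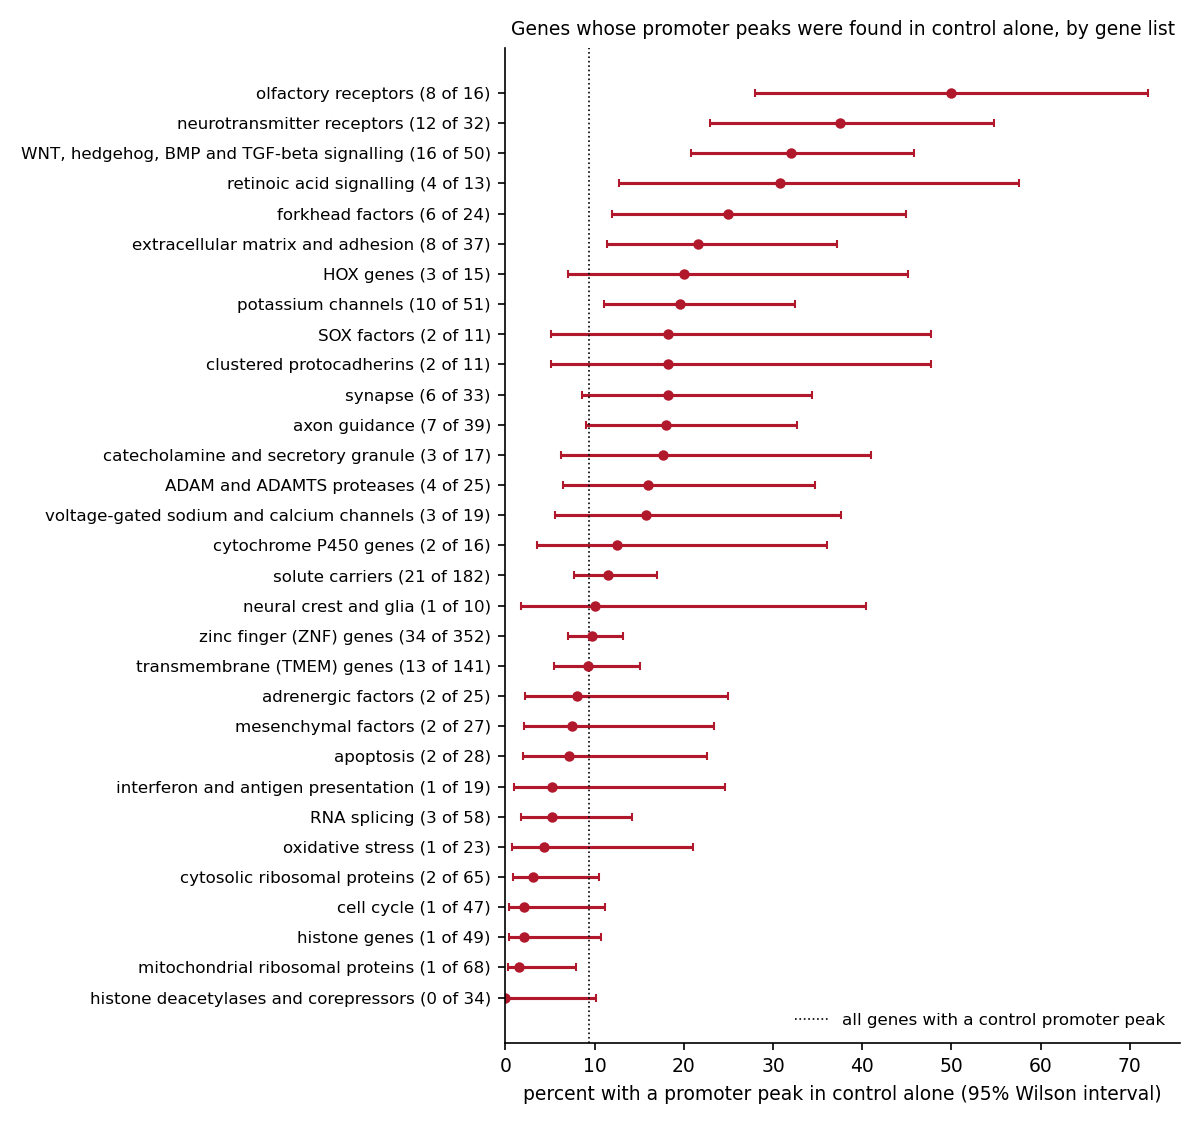
Percent of the genes with a control promoter peak that had none in sgSNHG1 (x axis, 95% Wilson interval) for gene lists with at least 10 such genes (y axis, 1 of them not drawn, counts in parentheses), with the 9.33% of all genes as a dotted line. Receptors and signalling genes lie to the right of the line, and mitochondrial ribosomal proteins are the only list with an interval left of it.

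Neurotransmitter receptors had among the highest shares. Of 32 such genes with a control promoter peak, 15 had a control-only peak and 12 were control-alone, which is 37.5% (22.9 to 54.7). GRIK4, a kainate-type glutamate receptor subunit, had a pileup of 40, ADRA2B, an alpha-2 adrenergic receptor, 29, and CHRM4 31 at its strongest site. GRIA4, an AMPA-type subunit, had 30 next to another sgSNHG1 peak. In the opposite direction, 2 receptor genes had a promoter peak in sgSNHG1 alone. The median of the genes' highest control pileups was 27.5. In the band of 1.25 to 2 times the calling limit, 6 of 14 receptor genes were control-alone, or 42.9% (21.4 to 67.4), against 15.6% (14.3 to 16.9) of 3148 genes in all.

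Genes of WNT, hedgehog, BMP and TGF-beta signalling, which pattern embryonic tissues, followed. Of 50 with a control promoter peak, 22 had a control-only peak and 16 were control-alone, which is 32.0% (20.8 to 45.8). The ligand genes WNT3 and WNT9B shared 1 peak of 28 fragments, the receptor gene TGFBR2 had 17 at 56 bp downstream of the TSS, and GLI1, with an sgSNHG1 peak elsewhere in the window, had 40. Further control-alone genes included the ligands WNT4, WNT9A and WNT11, the hedgehog signal transducer SMO and the inhibitors DKK3, SFRP5 and SMAD7. The median highest pileup was 28.5, and in the band of 1.25 to 2 times the limit 6 of 18 genes were control-alone, or 33.3% (16.3 to 56.3). WNT3, LRP5 and WNT5B were the 3 of these 16 with an sgSNHG1 peak at another transcript start.

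Retinoic acid signalling genes, whose ligand drives neuroblastoma cells to differentiate, had 6 of 13 with a control-only peak and 4 control-alone, which is 30.8% (12.7 to 57.6). NR2F1, an orphan nuclear receptor, had 25 at 1098 bp downstream of the TSS, and its window held an sgSNHG1 peak at another site. The control-alone genes were NR2F6, RXRG, RBP4 and CRABP2, with pileups between 14 and 22. In the band of 1.25 to 2 times the limit, 0 of 3 of the list were control-alone, so the counts in the band were too few to read.

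Extracellular matrix and adhesion genes had 10 of 37 with a control-only peak and 8 control-alone, which is 21.6% (11.4 to 37.2). FBN1, which encodes fibrillin-1, had a pileup of 24, and COL11A1 and COL1A2, fibrillar collagen chains, had 24 and 20, each downstream of the TSS. LAMA4, a laminin chain with an sgSNHG1 peak at another transcript start, had 17. Potassium channels had 14 of 51 and 10, or 19.6% (11.0 to 32.5), among them the ATP-sensitive channel gene KCNJ11 with 26 and 25 fragments on both sides of the TSS, KCNK6 with 16, and KCNC1 with 24 at the TSS itself. KCNQ5 had 33 and an sgSNHG1 peak at another site. In the band of 1.25 to 2 times the limit, 5 of 15 matrix and adhesion genes were control-alone, or 33.3% (15.2 to 58.3), against 3 of 23 potassium channel genes, or 13.0% (4.54 to 32.1), which is under the 15.6% of all genes in the band. Each of these lists had 4 genes with a promoter peak in sgSNHG1 alone. Forkhead factors had 11 of 24 and 6, with an interval of 12.0% to 44.9% for the latter share, and in the band 2 of 11 were control-alone, or 18.2% (5.14 to 47.7). FOXO1 had 19 at 24 bp downstream of the TSS and FOXC2 15 at -2848 bp, both control-alone, while FOXD1 with 20 and FOXO3 with 32 had an sgSNHG1 peak at another site. FOXL2NB, counted by its name, is not a forkhead gene and shares the peak of FOXL2.

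Olfactory receptors had 12 of 16 with a control-only peak and 8 control-alone, an interval of 28.0% to 72.0%. The median highest control pileup of this list was 14, a median of 1.13 times the calling limit, and the highest among its control-only peaks was 16, at OR51B5. OR14L1P, by its name a pseudogene, was counted here because it is annotated as protein-coding. In the opposite direction 10 olfactory receptor genes had a promoter peak in sgSNHG1 alone.

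Axon guidance genes had 16 of 39 with a control-only peak (41.0%, 27.1 to 56.6, against 17.3% of all genes). Of the 39, 7 were control-alone, which is 17.9% (8.98 to 32.7). Of these 7, ROBO1, ROBO2, ROBO3 and SEMA5B had an sgSNHG1 peak at another transcript start. EFNA4, an ephrin ligand, had 29 fragments at -2018 bp from the TSS without such a peak, and EFNA5 had 40 and an sgSNHG1 peak at another site. In sgSNHG1 alone, 2 axon guidance genes had a promoter peak. Synapse genes had 9 of 33 and 6, or 18.2% (8.61 to 34.4). STX1A, the presynaptic syntaxin, had 28 fragments at -1981 bp from the TSS and 21 at 44 bp downstream, and LRRTM2 had 17, both control-alone, and LRRTM1 had 24 with another sgSNHG1 peak.

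Catecholamine and secretory granule genes, which mark the adrenergic lineage, had 7 of 17 with a control-only peak (41.2%, 21.6 to 64.0, against 17.3% of all genes). Of the 17, 3 were control-alone, which is 17.6% (6.19 to 41.0). SLC6A2, the noradrenaline transporter, had a pileup of 36 fragments (25.2 to 49.8) 43 bp upstream of the TSS, with a fold enrichment of 4.17 and no sgSNHG1 promoter peak. The other 2 were GAL with 19 and SLC18A1 with 15. In sgSNHG1 alone, 2 genes of this list had a promoter peak. SLC18A2, VGF and PCSK1 had control-only peaks of 18, 24 and 16 and an sgSNHG1 peak at another site. Of 25 adrenergic transcription factor genes 8 had a control-only peak, or 32.0% (17.2 to 51.6), an interval that includes the 17.3%. SATB1 with 14 and DACH1 with 13 were control-alone, SATB1 with an sgSNHG1 peak at another transcript start. TLX2, TFAP2B, MYT1L and TBX2, with 31, 19, 23 and 33, had an sgSNHG1 peak at another site.

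Mesenchymal factors had 4 of 27 with a control-only peak, or 14.8% (5.92 to 32.5), and 2 control-alone, or 7.41% (2.06 to 23.4). These were ZEB1, a repressor of epithelial genes, with 23 and 14 fragments, and MEOX2 with 15. PRRX1 and ZEB2 had 21 and up to 20 and an sgSNHG1 peak at another site. Of 10 neural crest and glial genes 3 had a control-only peak, or 30% (10.8 to 60.3), an interval that includes the 17.3% of all genes. PAX3 with 14 at each of 2 sites was control-alone, while NGFR and NRG1 with 26 and 28 had an sgSNHG1 peak at another site. Of 11 SOX genes 5 had one (45.5%, 21.3 to 72.0, against 17.3% of all genes). SOX5 (19 and 16) and SOX17 (17) were control-alone, or 18.2% (5.14 to 47.7), an interval that includes the 9.33% of all genes. SOX21 had 25 and SOX12 23 with another sgSNHG1 peak.

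Mitochondrial ribosomal proteins were the only list whose interval lay below the 9.33% of all genes. Of 68 mitochondrial ribosomal protein genes 3 had a control-only peak and 1, MRPS34 with 25 fragments, was control-alone, which is 1.47% (0.260 to 7.87). Of 65 cytosolic ribosomal protein genes 3 had one, and RPL17 with 16 and RPL29 with 13 were control-alone, or 3.08% (0.848 to 10.5). Of 47 cell cycle genes 3 had one, and CDKN1C, a cyclin-dependent kinase inhibitor, was control-alone with 23, a share of 2.13% (0.377 to 11.1). The intervals of the cytosolic ribosomal and cell cycle lists include the share of all genes. Their median highest pileups were 43, 39 and 40. Histone genes had 10 of 49 with a control-only peak (20.4%, 11.5 to 33.6, against 17.3% of all genes) and 1 control-alone, H3C6 with 12.

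Chromatin and RNA regulators had intervals that include the 9.33% of all genes. None of 34 histone deacetylase and corepressor genes was control-alone, a share of 0 with an upper bound of 10.2%, and SIN3A with 41, CHD4 with 27, HDAC5 with 21 and NCOR1 with 12 fragments each had an sgSNHG1 peak at another site. RNA splicing genes had 7 of 58 with a control-only peak and 3 control-alone, or 5.17% (1.77 to 14.1). Of these 3, SRSF5 with 28 and ELAVL1 with 20 had an sgSNHG1 peak at another transcript start, and NOVA2 with 12 did not. SRSF2 and SRSF7, each with 32, had an sgSNHG1 peak at another site in the window.

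For apoptosis, stress and immune genes the intervals also include the share of all genes. Of 28 apoptosis genes 5 had a control-only peak, or 17.9% (7.88 to 35.6), and BIRC3 with 36 and BAX, a pore-forming effector, with 12 were control-alone, or 7.14% (1.98 to 22.6). FAS with 21 and BIRC2 with 22 had an sgSNHG1 peak at another site. Of 23 oxidative stress genes only PRDX2, a peroxiredoxin, had control-only peaks, with 27 and 13 fragments, and it was control-alone, a share of 4.35% (0.772 to 21.0). Of 19 interferon and antigen presentation genes, OAS1 with 15 was control-alone and IFI6 with 21 had an sgSNHG1 peak at another site, and the control-alone share was 5.26% (0.935 to 24.6).

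The ZNF, solute carrier and TMEM families lay close to the 9.33% of all genes. Of 352 ZNF genes, 56 had a control-only peak and 34 were control-alone, or 9.66% (6.99 to 13.2). ZNF416 with 23 fragments, ZNF710 with 26 and ZNF589 with 21 were control-alone, each with the summit within 133 bp of the TSS, and ZNF609 with 24 had an sgSNHG1 peak at another site. Of 182 solute carrier genes 36 and 21 were counted, or 11.5% (7.67 to 17.0), with SLC18A3, the vesicular acetylcholine transporter, at 38, SLC44A3 at 25 and SLCO2A1 at 30 fragments, the last with an sgSNHG1 peak at another transcript start. SLC2A4RG, counted by its name, is not a solute carrier. Of 141 TMEM genes 21 and 13 were counted, or 9.22% (5.47 to 15.1), and TMEM62, with an sgSNHG1 peak at another transcript start, had 24 fragments, TMEM52 28, TMEM244 18 and TMEM54 20. ADAM and ADAMTS proteases had 9 of 25 with a control-only peak (36.0%, 20.2 to 55.5, against 17.3% of all genes). Of the 25, 4 were control-alone, or 16.0% (6.40 to 34.7), with ADAMTS14 at 22 and ADAMTS16 at 17.

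The smaller families had few members, and the intervals of their shares include the 17.3% and 9.33% of all genes. Of 19 voltage-gated sodium and calcium channel genes 4 had a control-only peak (21.1%) and 3 were control-alone (15.8%). These were SCN3A with 17, CACNG4 with 23 and CACNB4 with 14 fragments. Of 15 HOX genes HOXD3 with 23, HOXC13 with 12 and HOXA5 with 11 were control-alone, or 20%. At HOXD3 an sgSNHG1 peak lay at another transcript start, and 4 HOX genes had a promoter peak in sgSNHG1 alone. Of 11 clustered protocadherin genes PCDHB4 with 17 and PCDHA11 with 11 were control-alone (18.2%), and of 16 cytochrome P450 genes CYP4F12 with 14 and CYP2D6 with 11 (12.5%). KRT80 was the only one of 3 keratin genes with a control-only peak.

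Across chromosomes the control-only share of promoter peaks ranged from 14.0% (11.9 to 16.4) on chromosome 2 to 25.9% (19.8 to 33.2) on chromosome 18. Chromosome 19 had 24.5% (21.4 to 27.9) of 674, and chromosome 1, with the most promoter peaks, 14.6% (12.8 to 16.6) of 1350. Control-only promoter peaks were found on each of the 20 chromosomes examined, with 19 on chromosome 21 and 197 on chromosome 1.

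When a shared site had to cover 50% of each peak, 4004 control promoter peaks had no counterpart, and with control peaks restricted to a -log10 q of at least 5, 1017. The count of control-alone genes was 1050 and 660 under these settings.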

How the data were processed

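ATAC-seq libraries of SK-N-BE(2)C cells (2 control, 2 sgSNHG1) were processed by the authors, who trimmed adapters with cutadapt, aligned pairs to GRCh38 with BWA, removed duplicate, multiply mapped, mitochondrial and blacklisted reads, shifted read ends for the Tn5 offset with deepTools and combined replicates before peak calling with MACS2 in paired-end mode. Tool versions and the peak threshold were not given in the sources used here. The deposited lists hold, for each peak, a score, a fold enrichment at the summit over the local background, a -log10 p-value and a -log10 q-value. Total fragment numbers were not given, so depth is read from the pileup and background.

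The whole-number pileup and local background were solved from fold enrichment and -log10 p, within 0.001 for 47609 of 47610 control and 42682 of 42682 sgSNHG1 peaks, and the solver was tested on simulated data. Peaks were compared by overlap of at least 1 bp. The TSS was the 5′ end of the GENCODE version 44 gene record, and 17577 protein-coding genes outside chromosomes 4, 9 and X were used. Sequence was read from GRCh38 within 100 bp of summits. Shares have Wilson and pileups exact Poisson 95% intervals. No test between groups was possible with 1 pooled list per group. Alternatives changed the overlap rule, window, TSS, peak threshold, assignment and sequence window.

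Named peaks were the 25 with the highest -log10 q, the 15 with the highest fold enrichment at genes without an sgSNHG1 promoter peak, up to 4 per gene list by -log10 q, those at the edge of the rule, and genes with at least 2 control-only peaks and no sgSNHG1 peak. Other list genes named as control-alone, flanking peaks and other peaks of the same windows were chosen after their values were seen. Of the last group of named genes, examples are given. The 33 gene lists (16 of chosen symbols, 17 by symbol pattern) were written from general knowledge. The peaks and lists were chosen with earlier results of these data known. Some items examined are not reported here. Python 3.11.15, pandas 2.3.3, SciPy 1.17.1 and samtools 1.23.1 were used.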

Additional observations from a re-analysis of the deposited data

How the results depend on the processing

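Of 48 values recomputed under the alternatives, 32 stayed the same by the rule for their kind, and 16 moved. Shares had to stay within their interval and counts within 1.5 times the count reported above. The median GC content had only to move by less than the standard deviation of GC content across the peaks. The share of control promoter peaks that were control-only was 15.7% when a peak within 200 bp counted as shared, 14.4% with a window of 1 kb, 19.4% with the start of any protein-coding transcript as TSS, and 16.3% when both lists were cut at a -log10 q of 5. With an overlap of 50% of both peaks required, it was 36.3%, with 4004 peaks at 4052 genes, of which 77.8% had the summit within 1 kb of the TSS and 92.8% were above the calling limit. With any transcript start, 73.5% of summits were within 1 kb. With control peaks alone cut there, it was 10.4%, with 1017 peaks at 1103 genes and 660 control-alone genes. In that setting 100% of peaks were above the limit, as were 100% with both lists cut. The limit of the uncut sgSNHG1 list was kept in both settings, so the cut on control peaks largely fixed these shares. Control-alone genes numbered 660 to 1173 over all settings. No paired analysis was possible because the replicates of each group were combined before peak calling. Replicates could not be left out for the same reason, so the spread between libraries is unknown. The calling limit assumes the same local background in both lists after scaling and takes no account of peak width. Pileups under about 20 fragments have wide counting intervals, and most control-only peaks lie there.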
